A study of Mus musculus with 12 samples.

Results

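Ddx3x, Eif2s3x, Pbdc1 and 5530601H04Rik are 4 genes of the mouse X chromosome that are known to escape X inactivation, and they were followed through reprogramming of fibroblasts by the share of their reads carrying the reference base. Members were every single-base variant with a coverage of at least 20 reads that the variant tables assign to one of these genes, which gave 55 of 5932 such sites with a gene name and 4 of 399 genes. Poly(A) RNA was sequenced from 10 libraries of reprogrammed cells and 2 of mouse embryonic fibroblasts. All reprogrammed cells carried the Sendai virus vector SeVdp(fKOSMaB). In the course MidK1 they were given Shield1 at 30 nM, a ligand that keeps destabilising-domain fusion proteins from being degraded, and the course was sampled at days 35, 52 and 56. LowK had no added agent and was sampled at the same 3 days, and MidK2 received 30 nM Shield1 and was sampled at days 18, 22, 29 and 36. The fibroblasts, MEF1 and MEF2, were taken at day 0 with neither vector nor agent. Each course and day is 1 library, so tests over libraries take days of a course as units, and nothing says that they, or MEF1 and MEF2, came from separate cultures. Their p-values therefore measure only the spread between these libraries. The sources used here give neither the strains nor the parental origin of each X chromosome.

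In female mammals 1 X chromosome of each cell is silenced early in development, with the noncoding RNA Xist coating it, and most of its genes stay off in fibroblasts. A small set of escape genes is still transcribed from the silent chromosome, so both alleles are read. When mouse cells reach pluripotency the silent X is switched on again, which is read as a return of the silent allele at other genes. Ddx3x encodes a DEAD-box RNA helicase with roles in translation, and Eif2s3x encodes the gamma subunit of eIF2, the factor that brings the initiator tRNA to the ribosome. Both have a counterpart on the Y chromosome, Ddx3y and Eif2s3y. Pbdc1 encodes a small protein named for its polysaccharide biosynthesis domain, and 5530601H04Rik is a long noncoding RNA. On build mm10, Ddx3x lies at chrX:13280970-13294052 on the plus strand and Eif2s3x at chrX:94188707-94212862 on the minus strand. 5530601H04Rik (chrX:105037197-105079609, minus strand) and Pbdc1 (chrX:105079756-105117090, plus strand) run away from each other with 146 bases between their starts.

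The sites that carry the comparisons are shown as 29-base stretches of the plus strand with the reference base in a capital, and the substitution counts positions from 1 at the 5′ end of the stretch. Of the Ddx3x sites, the first lies in the 5′ UTR, the next 2 are synonymous coding changes with some of the widest differences, and the last lies in a run of 14 adenines of the 3′ UTR.
Ddx3x T15G, chrX:13281079-13281107: gcggaagactccgaTttctcggtactctt
Ddx3x C15G, chrX:13290533-13290561: ataggccgtacaggCcgtgtgggaaacct
Ddx3x T15C, chrX:13291272-13291300: ggccatggcggcagTcgaggatttggtgg
Ddx3x A15C, chrX:13292608-13292636: actttgtaaaaaaaAaaaaaacaaaacaa
Eif2s3x T15G, chrX:94190069-94190097: ctgccatcagggccTtgtttgagtctgtg
Eif2s3x C15T, chrX:94190243-94190271: tgtggatgggacacCctcccccgttgcca
Pbdc1 C15T, chrX:105082733-105082761: gaagattataactaCgggactttactgcg
Pbdc1 G15A, chrX:105083107-105083135: agaggaaggagctgGcaataaagaagaag
Pbdc1 C15T, chrX:105083367-105083395: taatagcttaaacaCccttagtggagtct
5530601H04Rik T15C, chrX:105066782-105066810: catcactgtcttgaTgaagttctggaacg
5530601H04Rik G15A, chrX:105066796-105066824: tgaagttctggaacGtcaaagggaggcaa
The Eif2s3x pair are its only sites listed in all 12 libraries, both in the 3′ UTR. The Pbdc1 stretches hold a synonymous, a missense and a 3′ UTR site that differed from each other in MEF. The 5530601H04Rik pair overlap, and each is listed in 7 libraries. Sequences were read from the GENCODE M21 transcripts of GRCm38, the assembly also called mm10, whose base equalled the reference base of the tables at all 54 exonic member sites.

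The members differed widely in how well they could be measured. Ddx3x had 16 sites, 15 of them listed in all 12 libraries, with 1466 to 3687 reads of summed coverage per library. Eif2s3x had 18 sites, of which 2 were listed everywhere, and 219 to 1341 reads. Pbdc1 had 7 sites, of which 5 were listed everywhere, and 222 to 951 reads. 5530601H04Rik had 14 sites and none in LowK day 35, MidK1 day 35 or MidK1 day 52, and elsewhere it rested on 20 to 186 reads. Of the Ddx3x sites, 12 lie in coding sequence (10 synonymous and 2 missense), 1 in the 5′ UTR and 3 in the 3′ UTR. Of the Eif2s3x sites 15 lie in the 3′ UTR and 3 are synonymous, and all 14 of 5530601H04Rik lie in exons of its noncoding transcripts. Reads carry no molecular identifiers and neighbouring sites can lie on 1 read, so all 95% Wilson intervals and all tests on reads cover counting error only.

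In fibroblasts all 4 genes were read from both alleles. Over all listed sites Ddx3x had a reference share of 42.8% in MEF1 (95% interval 40.5 to 45.2), and in MEF2 it had 44.5% (42.0 to 47.1). Pbdc1 had 43.7% (37.3 to 50.3) in MEF1 and 42.3% (37.0 to 47.9) in MEF2. Eif2s3x had 45.2% (38.8 to 51.8) in MEF1 and 60.4% (54.6 to 65.9) in MEF2, and 5530601H04Rik had 40% (21.9 to 61.3) of 20 reads and 52.4% (32.4 to 71.7) of 21 reads. In MEF1 the intervals of all 4 genes overlapped, so their order there is not resolved. The 5530601H04Rik values come from different sites, T15C in MEF1 and G15A in MEF2. The Eif2s3x gap came with different sites: at the 2 sites listed in both, its share was 45.7% in MEF2 and 42.7% in MEF1 (adjusted p = 0.877 by Fisher's exact test, Benjamini-Hochberg over 174 genes). None of the 3 members tested between MEF2 and MEF1 differed at an adjusted p under 0.05, where 30.5% of genes did in either direction and 0% differed by at least 20 points. By contrast the median gene had a reference share of 3.91% in MEF1 and 3.74% in MEF2, since most genes were read almost wholly from the variant allele.

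A few sites were almost wholly reference, with a share above 80% in every library that listed them, and they were listed unevenly. There was 1 in Ddx3x, 5 in Eif2s3x, 1 in 5530601H04Rik and 0 in Pbdc1. The tables of MEF2 and MidK2 list variants from 5% of reads and those of MEF1, LowK and MidK1 from about 10%, so the first list more of them. The Ddx3x one is the base next to the A15C site inside the same adenine run, with shares of 83.1% to 92.6% in 9 libraries, and MidK1 does not list it on any day. Summed shares of libraries that list such sites are higher by construction, so shares over the sites listed in all 12 libraries are given beside those over all listed sites.

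**Figure D1:**
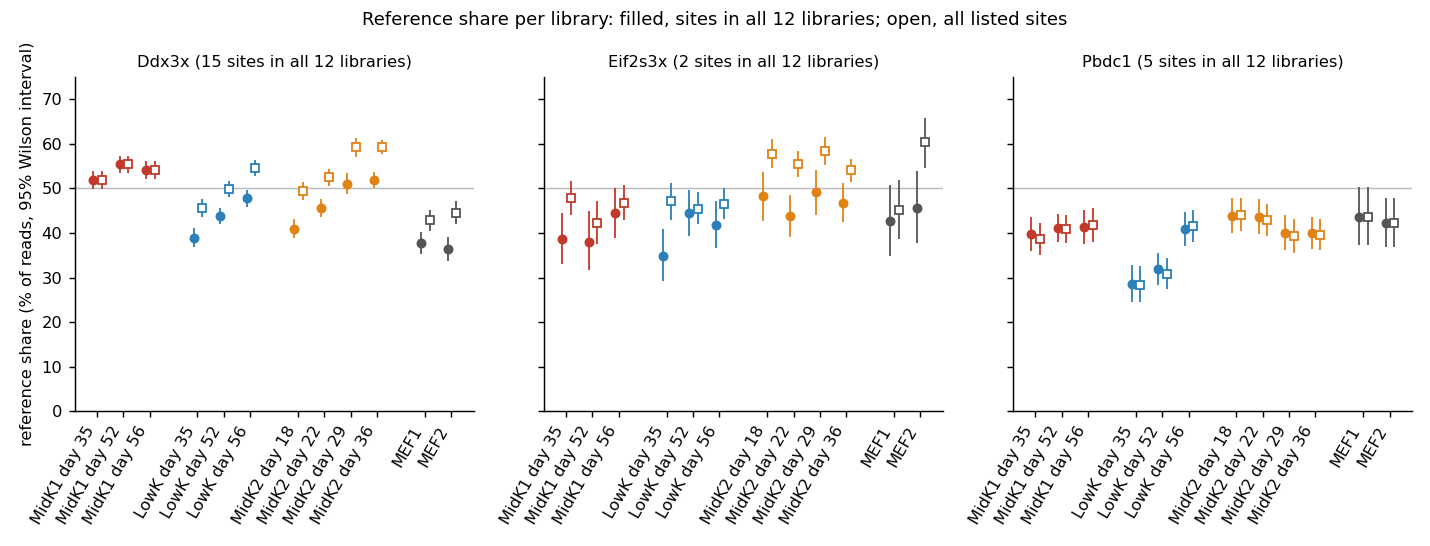
Reference share (% of reads, with 95% Wilson intervals) of Ddx3x, Eif2s3x and Pbdc1 in each library, over the sites listed in all 12 libraries (filled) and over all listed sites (open). For Ddx3x every filled reprogrammed point lies above both MEF points, while Eif2s3x and Pbdc1 overlap them.

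Ddx3x was read more from the reference allele in reprogrammed cells than in fibroblasts. Over its 15 sites listed in all libraries the share was 51.9%, 55.4% and 54.1% in MidK1 at days 35, 52 and 56, and 38.9%, 43.8% and 47.8% in LowK at the same days. In MidK2 it was 41%, 45.5%, 51.1% and 51.8% at days 18, 22, 29 and 36, against 37.7% in MEF1 and 36.4% in MEF2. All 10 reprogrammed libraries lay above both fibroblast libraries, a pattern shown by 16% of the 131 genes with such sites. LowK day 35 lay closest to them, with an interval of 36.8 to 41.1% that overlaps that of MEF1, 35.3 to 40.2%. In bulk RNA a change in the mix of cells, or in how many cells of a type there are, cannot be told apart from a change of RNA within each cell.

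The mean over reprogrammed libraries was 48.1% ± 5.66 (SD, n = 10), against 37.1% ± 0.928 in MEF (n = 2), a difference of 11.1 points. An exact two-sided permutation test gave p = 0.0152, the smallest that its 66 splits can give. Over all listed sites the means were 53.2% ± 4.28 in reprogrammed libraries and 43.7% ± 1.21 in MEF, 9.50 points apart, with the same exact permutation p of 0.0152. With Benjamini-Hochberg adjustment over the 8 group tests of the 4 genes (reprogrammed against MEF and MidK1 against LowK), that exact permutation p became 0.121 and the difference did not pass. Within the tables with the limits of MEF1 the difference over all sites was 9.10 points, and within those with the limits of MEF2 it was 10.5 points. With 1 MEF library in each set, the smallest exact permutation p is 0.143 and 0.2. On the all-site scale the share of the less read allele was also higher by 4.95 points, where the exact permutation p was 0.0909.

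As a mean over libraries the difference had the same direction along the gene, while single libraries and courses varied by site. At each of the 15 sites the mean of the reprogrammed libraries lay above the mean of MEF1 and MEF2, by 4.34 to 18.3 points with a median of 9.24. Depending on the site, 4 to 10 of the 10 reprogrammed libraries lay above both MEF libraries. At chrX:13289857 and chrX:13289866 MEF2 had 46.4% and 45.3%, above the reprogrammed means of 44.9% and 44.5%. MidK2 averaged 39.1% and 39.2% there, below MEF2 and above MEF1 at 33.8% and 35.1%. The C15G site had the widest gap, with a mean of 46.0% in reprogrammed libraries against 33.3% in MEF1 and 22.2% in MEF2, and all 10 reprogrammed values lay above both. The T15C site averaged 43.8% in reprogrammed libraries, against 29.6% in MEF1 and 29.0% in MEF2. At the T15G site in the 5′ UTR the reprogrammed mean was 41.4%, against 26.0% in MEF1 and 38.5% in MEF2, so there the fibroblast libraries themselves differed. The A15C site in the adenine run had the highest shares of all, 58.5% on average in reprogrammed libraries against 47.9% in MEF1 and 50.6% in MEF2. With both sites of that run left out, the difference between reprogrammed libraries and MEF was 10.9 points (exact permutation p = 0.0455).

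**Figure D2:**
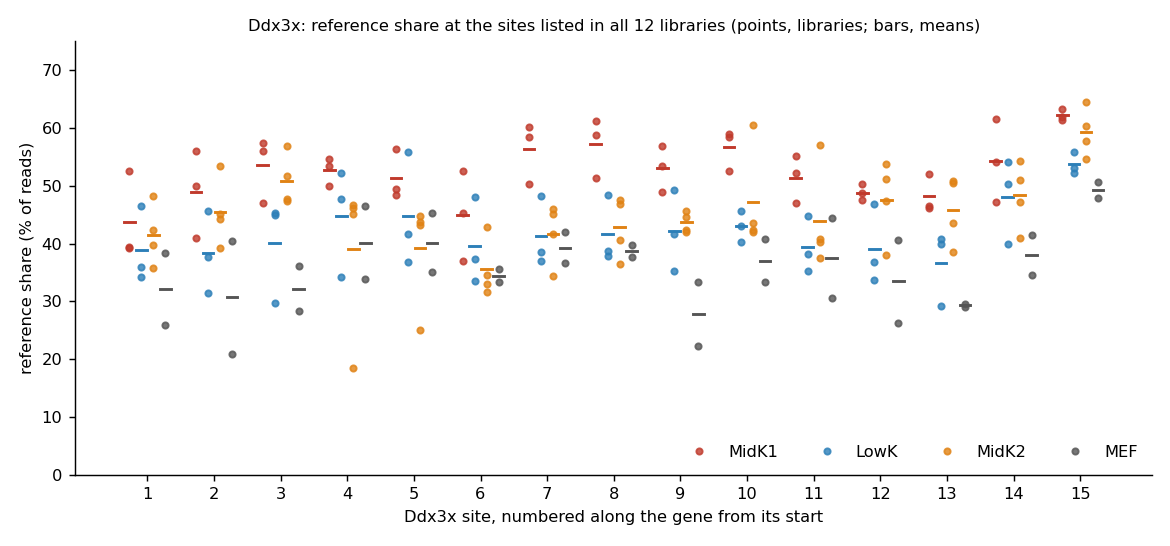
Reference share (%) at each of the 15 Ddx3x sites listed in all 12 libraries, ordered along the gene, with a point per library and a bar for the mean of MidK1, LowK, MidK2 and MEF. The MidK1 mean lies above the LowK mean at all 15 sites, and the mean of all reprogrammed libraries lies above that of MEF at each.

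Taken library by library at shared sites, Ddx3x was above the MEF library of the same caller limits in 9 of 10 comparisons at an adjusted p under 0.05 (Fisher's exact test, Benjamini-Hochberg over all genes of a pair). It was 14.2, 17.7 and 16.4 points above MEF1 in MidK1 at days 35, 52 and 56 (adjusted p = 1.42e-16, 1.71e-26 and 1.38e-22 by Fisher's exact test), where 23.5%, 25.2% and 41% of genes were higher by that rule. In LowK it was 2.83 points above MEF1 at day 35 (adjusted p = 0.229 by Fisher's exact test), 7.05 points at day 52 (2.63e-05) and 11.7 points at day 56 (1.22e-13), where 4.91%, 10.6% and 22.1% of genes were higher. In MidK2 it was 4.85, 7.95, 14.7 and 14.7 points above MEF2 at days 18, 22, 29 and 36 (adjusted p = 0.0136, 2.77e-06, 2.11e-17 and 1.88e-20 by Fisher's exact test), where 28%, 67.4%, 54.1% and 22.9% of genes were higher. At days 22 and 29 of MidK2 a higher share by that rule was thus common to most genes. These differences stayed under 20 points, the size used for a call in the comparisons of libraries, and 0 of the 36 pairs of a member and a library were called, against 7.55% of all 1709 pairs of a gene and a library.

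Within a course Ddx3x climbed with time in LowK and MidK2 and was already high at the first MidK1 day. In LowK it was 4.22 points higher at day 52 than at day 35 (adjusted p = 0.0212, Fisher's exact test) and 4.67 points higher at day 56 than at day 52 (adjusted p = 0.00191, Fisher's exact test). In MidK2 it was 3.10 points higher at day 22 than at day 18 (adjusted p = 0.0586, Fisher's exact test) and 6.72 points higher at day 29 than at day 22 (adjusted p = 4.77e-05, Fisher's exact test). At day 36 of MidK2 the summed share differed from day 29 by 0.0264 points. The median over the 15 sites listed everywhere ran differently, at 39.8%, 43.6%, 45.1% and 50.5% at days 18, 22, 29 and 36, and 10 of 16 sites were higher at day 36 than at day 29. The summed values weigh the deeply covered A15C site in the adenine run, which had 54.7%, 57.8%, 64.5% and 60.3% at these days. In MidK1 it was 3.5 points higher at day 52 than at day 35 (adjusted p = 0.0947, Fisher's exact test) and differed by -1.29 points at day 56 from day 52 (adjusted p = 0.618, Fisher's exact test). Of 24 steps between successive days tested over the 4 genes, 4 passed and all of them were higher, 3 in Ddx3x and 1 in Pbdc1, while 17% of all pairs of a gene and a step were higher by that rule. At the 20-point size 0 steps of the members were called, against 1.32% of all.

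With Shield1, Ddx3x had a higher reference share than without it at each matched day. At the sites shared by the 2 libraries MidK1 exceeded LowK by 13.0 points at day 35, 11.7 points at day 52 and 6.37 points at day 56 (adjusted p = 7.42e-16, 4.50e-16 and 4.81e-05 by Fisher's exact test), where 34.9%, 29.8% and 37% of genes were higher by that rule. The 3 MidK1 values of 51.9% to 55.4% and the 3 LowK values of 38.9% to 47.8% did not overlap, as for 26% of the 131 genes with sites in all libraries. The mean was 53.8% ± 1.77 in MidK1 and 43.5% ± 4.42 in LowK (SD, n = 3 each), 10.3 points apart, and the exact permutation p was 0.1, the smallest that 3 against 3 can give. Over all listed sites the gap was 3.80 points (exact permutation p = 0.3), since the almost wholly reference site counts in LowK and is not listed in MidK1. At the 20-point size 0 of the 10 member comparisons between MidK1 and LowK were called, against 8.3% of all. MidK2 at day 36 and MidK1 at day 35, which received the same dose, had 51.8% and 51.9% for Ddx3x at shared sites, and 0 members reached the 20-point size there, against 2.44% of genes.

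Reads of each allele can be set against all reads over the sites that every library lists, which is a share of X-linked coverage and not an expression level. Ddx3x reference reads were 905 to 1735 per 100000 in the reprogrammed libraries, with a median of 1425, against 894 in MEF1 and 462 in MEF2. Its variant reads were 924 to 1943 per 100000, with a median of 1390, against 1476 in MEF1 and 806 in MEF2. Reference reads thus lay above both MEF libraries in 10 of 10 reprogrammed libraries, as for 19.8% of genes, and variant reads in 3 of 10. The denominator moved with the cells, because fibroblast genes of the X such as Tmsb4x took 551 to 1019 reads of site coverage per 100000 in reprogrammed libraries against 3848 in MEF1 and 3186 in MEF2. Set against the coverage of the silenced genes listed below, Ddx3x reference reads were above both MEF libraries in 4 of 10, and variant reads below both in 3 of 10. The ratio of reference to variant reads needs no denominator and was 0.638 to 1.24 in reprogrammed libraries, against 0.606 in MEF1 and 0.573 in MEF2.

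**Figure D3:**
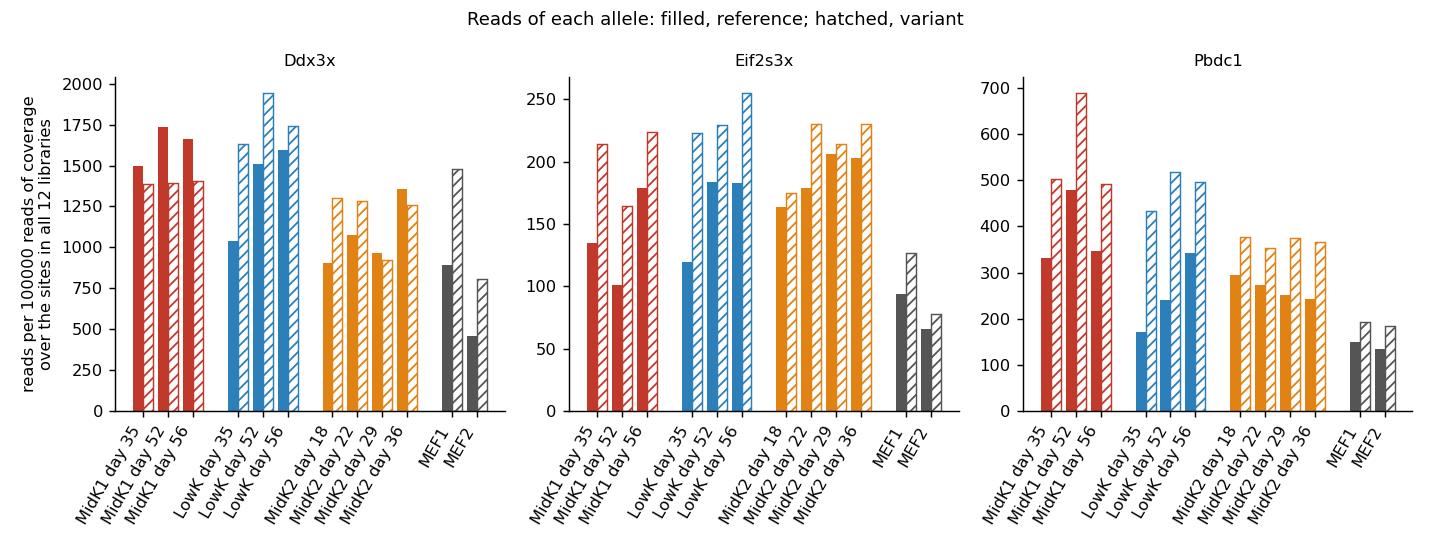
Reads of the reference allele (filled) and of the variant allele (hatched) of Ddx3x, Eif2s3x and Pbdc1 per 100000 reads of coverage over the sites listed in all 12 libraries. In Ddx3x the filled bar is the taller one in all 3 MidK1 libraries and in MidK2 at days 29 and 36, and the shorter one in LowK and in both MEF libraries.

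Insertions and a 2-base change of Ddx3x, which are outside the single-base rule, also had a higher summed share in reprogrammed libraries. Over 3 insertions and 1 such change listed in all 12 libraries, the share of reads without the variant was 64.6%, 68.1% and 63.2% in MidK1 at days 35, 52 and 56, and 52.5%, 59.0% and 55.7% in LowK. In MidK2 it was 56.1%, 56.1%, 57.5% and 59.4% at days 18 to 36, against 51.7% in MEF1 and 50.3% in MEF2. All 10 reprogrammed libraries again lay above both fibroblast libraries, though LowK day 35 by less than its interval of 49.3 to 55.7%. Taken singly the variants differed: the 2-base change and the insertion at chrX:13293690-13293691 were above both MEF libraries in 10 of 10, and the insertion at chrX:13292393-13292394 in 9, with LowK day 35 below both. The 2-base change, at chrX:13292628-13292629 with 5565 reads over the 12 libraries, lies at the end of the adenine run that holds the A15C site. It is thus not separate from that site. The insertion at chrX:13291680-13291681 was above both in 4 of 10, with a median of 49.8% in reprogrammed libraries against 53.3% in MEF1 and 38.3% in MEF2 (exact permutation p = 0.273). The mean was 59.2% ± 4.77 in reprogrammed libraries (n = 10) and 51.0% ± 1.01 in MEF (n = 2), 8.24 points apart (exact permutation p = 0.0455). MidK1 averaged 65.3% ± 2.54 and LowK 55.7% ± 3.23 (SD, n = 3 each; exact permutation p = 0.1, the smallest possible). These variants come from the same RNA and partly the same reads as the single-base sites, and aligners treat insertions differently, so their level is not comparable with that of the sites.

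**Figure D4:**
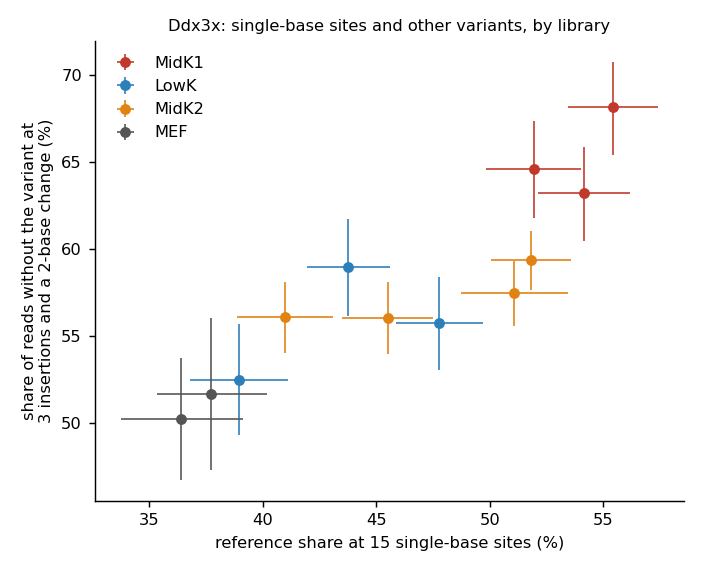
Share of reads without the variant (%) summed over 3 insertions and a 2-base change of Ddx3x against its reference share (%) at the 15 single-base sites, with a point per library and 95% Wilson intervals. The 3 MidK1 libraries lie at the upper right and both MEF libraries, with LowK day 35, at the lower left.

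Ddx3x has near copies, and the base each carries was read from the aligned transcripts. Ddx3y is 83.1% identical over 4211 aligned bases, and D1Pas1, an autosomal copy without introns, is 85.4% identical over 2747. The Ddx3y base equals the variant at 6 sites, the reference at 5 and neither at 5. Among the 15 sites listed everywhere, the reprogrammed libraries exceeded MEF by a median of 10.6 points at the 6 where Ddx3y carries the variant base, by 7.95 at the 4 where it carries the reference base and by 11.7 at the 5 where it carries neither. The ranges of these classes overlapped, at 4.34 to 14.5, 4.75 to 16.2 and 5.14 to 18.3 points. By the D1Pas1 base the medians were 8.63 at 6 variant-base sites, 9.64 at 6 reference-base sites and 14.98 at 2 with neither. The 1 site that did not align to D1Pas1 had 9.24. All 15 sites had a positive difference, so any split of them gives medians above 0. Whether reads of a copy contribute to the difference was not tested. Of the Eif2s3x sites 3 align to the Eif2s3y transcript, which carries the variant base at 2 and neither base at 1, and the other 15 lie in a 3′ UTR that did not align.

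Eif2s3x was read from both alleles in every library, and over its listed sites the reprogrammed libraries overlapped the fibroblasts. With sites at least 200 bases apart the difference was -7.42 points (exact permutation p = 0.0455). That set keeps an almost wholly reference site, at 94.9% of 39 reads, which only MEF2 lists and which raises the MEF mean. Over all listed sites but the almost wholly reference ones the difference was 0.480 points (exact permutation p = 0.864). Of the other Eif2s3x variants, a deletion and an insertion described below averaged lower in reprogrammed libraries. At its 2 sites listed everywhere the share was 38.6%, 38.0% and 44.4% in MidK1, 34.9%, 44.4% and 41.8% in LowK, and 48.3%, 43.8%, 49.1% and 46.8% in MidK2, against 42.7% in MEF1 and 45.7% in MEF2. The means were 43.0% ± 4.65 in reprogrammed libraries (n = 10) and 44.2% ± 2.16 in MEF (n = 2), and the groups overlapped (exact permutation p = 0.758). Over all listed sites they were 50.2% ± 5.71 and 52.8% ± 10.7 (exact permutation p = 0.606), and the tables with the limits of MEF2 lay higher, at 54.1% to 60.4%, than those with the limits of MEF1, at 42.3% to 47.8%. With the almost wholly reference sites left out this gap narrowed to 44.3% to 50.2% against 39.4% to 46.8%. In no comparison with the MEF library of the same limits did Eif2s3x pass (0 of 10 at an adjusted p under 0.05, Fisher's exact test), with differences of -6.29 to 8.02 points. By that rule 18.4% to 67.9% of all genes passed per library. MidK1 and LowK averaged 40.3% ± 3.53 and 40.4% ± 4.92 at the 2 sites (n = 3 each; exact permutation p = 0.9).

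The T15G site supplied most of the Eif2s3x reads, 2984 of them over the 12 libraries, and stayed within 35.9% to 47.5%. The C15T site had 622 reads and ranged over 30.0% to 59.2%. MidK2 at day 36 exceeded MidK1 at day 35 by 6.85 points over 11 shared sites (adjusted p = 0.0171, Fisher's exact test), where 36.6% of genes passed. Of these sites 1 was almost wholly reference, at 91.5% and 89.4%, and raised both summed shares. Over all listed sites but such ones Eif2s3x had 46.1% in MidK2 at day 36 and 41.1% in MidK1 at day 35. Whether the gap passes without that site was not tested. Both alleles of Eif2s3x took a larger part of the coverage in all 10 reprogrammed libraries than in either fibroblast library. Its reference reads were 101 to 206 per 100000, against 94.2 in MEF1 and 65.7 in MEF2, and its variant reads 164 to 255, against 127 in MEF1 and 78.0 in MEF2. Variant reads were above both MEF libraries in all 10 for 29% of genes, and reference reads for 19.8%. Set against the coverage of silenced genes, Eif2s3x reference reads were above both MEF libraries in 8 of 10 and below both in 1, and variant reads above both in 9. A 5-base deletion of its 3′ UTR lies outside the single-base rule and is listed in all 12 libraries. Reads lacking it were 41.5% to 62.6% in reprogrammed libraries (median 53.8%), against 65.9% in MEF1 and 69.4% in MEF2 (exact permutation p = 0.0303). An insertion at chrX:94190156-94190157, also listed in all 12, had 47.1% to 73.6% (median 58.7%), against 65.6% in MEF1 and 66.7% in MEF2. It was below both MEF libraries in 7 of 10 and above both in 2 (-6.18 points, exact permutation p = 0.35). Neither p-value was adjusted for the number of such variants looked at. Over the 12 libraries the deletion was covered by 985 reads and the insertion by 733.

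Pbdc1 kept a share near 40% in most libraries, and 2 LowK libraries stood lower. At the 5 sites listed everywhere it had 39.7%, 41% and 41.3% in MidK1, 28.5%, 31.8% and 40.8% in LowK, and 43.8%, 43.7%, 40% and 39.9% in MidK2, against 43.7% in MEF1 and 42.3% in MEF2. LowK at days 35 and 52 lay below every other library, with intervals of 24.5 to 32.8% and 28.3 to 35.5%. Each was below MEF1, by 15.2 points at day 35 (adjusted p = 0.00118, Fisher's exact test) and 11.9 points at day 52 (adjusted p = 0.00998, Fisher's exact test), where 13.5% and 11.8% of genes were lower by that rule. At day 56 of LowK the difference from MEF1 was -2.87 points and did not pass, and the step up from day 52 was 10.1 points (adjusted p = 0.0014, Fisher's exact test). MidK1 exceeded LowK by 10.2 points at day 35 and 9.94 points at day 52 (adjusted p = 0.00166 and 2.85e-04 by Fisher's exact test), and by 0.776 points at day 56 (adjusted p = 0.965).

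Over libraries these differences did not pass. Pbdc1 averaged 39.1% ± 4.98 in reprogrammed libraries (n = 10) and 43.0% ± 0.980 in MEF (n = 2) at the sites listed everywhere (exact permutation p = 0.333). MidK1 averaged 40.7% ± 0.839 and LowK 33.7% ± 6.39 (n = 3 each; exact permutation p = 0.2). The sites did not behave alike in MEF1, where the synonymous C15T site had 63.9%, the missense G15A site 33.0% and the 3′ UTR C15T site 21.4%, on a total of 222 reads over the 5 sites. In MEF2 the same sites had 39.1%, 47.8% and 32.3%. Their reprogrammed means were closer, at 38.8%, 37.5% and 39.4%. Reads of both alleles of Pbdc1 lay above both fibroblast libraries in all 10 reprogrammed libraries, at 172 to 479 per 100000 for the reference allele, against 150 in MEF1 and 135 in MEF2. Variant reads were 353 to 689 per 100000, against 193 in MEF1 and 185 in MEF2. The same held for 19.8% of genes in reference reads and 29% in variant reads. Set against the coverage of silenced genes, Pbdc1 reference reads were above both MEF libraries in 8 of 10 and below both in 2, and variant reads above both in 10.

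5530601H04Rik, the noncoding neighbour of Pbdc1, was read from both alleles wherever it could be measured, with wide intervals. Over its listed sites it had 44.2% in MidK1 at day 56, 25.0% and 40% in LowK at days 52 and 56, and 44.1%, 45.8%, 54.2% and 28.7% in MidK2 at days 18 to 36, against 40% in MEF1 and 52.4% in MEF2. These values rest on different sites. MEF1 and LowK day 52 list the T15C site alone, MEF2 and LowK day 56 the G15A site alone, and MidK2 day 18 sums 8 sites. The day 29 value includes a site with 18 reference reads of 20, without which it was 42.9%. Reprogrammed libraries averaged 40.3% ± 10.2 (n = 7) and MEF 46.2% ± 8.76 (n = 2), and they overlapped (exact permutation p = 0.583). None of its 6 comparisons with MEF passed, where 22.4% to 67.9% of all genes did per library. Each rested on 1 shared site with 20 to 27 reads per library, too few to resolve even the gap of -22.75 points in MidK2 at day 36. With sites of at least 10 reads it could be read in all libraries, at 31.0% to 47.5% in the 10 reprogrammed libraries against 38.4% in MEF1 and 37.6% in MEF2, and the difference was 0.806 points (exact permutation p = 0.818).

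The nearest measured genes around each member were mostly read chiefly from the variant allele. Beside Ddx3x, Usp9x, a ubiquitin protease 108 kb before it, had 3.94% to 32.3% in reprogrammed libraries (median 19.7%), against 6.57% in MEF1 and 9.32% in MEF2. 1810030O07Rik, 607 kb before it, had 19.7% to 71.9% (median 62.0%), against 4.29% in MEF1 and 1.19% in MEF2. After it, Gm7129 was at 0% in all 12 libraries at its 1 site, and Maoa, a monoamine oxidase 3326 kb away, had 0.890% to 12.7% in reprogrammed libraries against 3.52% in MEF1 and 0.766% in MEF2. Around Eif2s3x, Maged1 at 323 kb had a median of 7.85% in reprogrammed libraries, against 4.06% in MEF1 and 0.866% in MEF2. The next gene, Las1l, a ribosome biogenesis factor at 1722 kb, was read from both alleles, with a median of 45.4% against 36.6% in MEF1 and 30.1% in MEF2. Before Eif2s3x the nearest such genes, Tmem47 and Gm8806, lie much farther off. Tmem47 had a median of 2.40% in reprogrammed libraries, against 1.64% in MEF1 and 2.87% in MEF2, and Gm8806 had 0.579%, against 0.606% in MEF1 and 32.3% in MEF2. Gm6285, before the Pbdc1 pair, had a median of 0.594% in reprogrammed libraries, against 0% in both MEF libraries. Atrx and Magt1 after it had medians of 9.88% and 12.6%, against 9.49% and 4.75% in MEF1 and 19.3% and 11.2% in MEF2.

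The genes whose shares over the 12 libraries came closest to the members were largely each other and further escape genes. Among 88 genes with at least 100 reads in every library, Eif2s3x was nearest to Ddx3x, at a mean absolute difference of 6.16 points, followed by Las1l at 10.3 and Pbdc1 at 12.3. For Eif2s3x, Las1l followed Ddx3x at 9.42 points and Pbdc1 came next at 11.1. For Pbdc1 they were Kdm5c, a histone demethylase, at 3.83, Las1l at 6.07 and Utp14a, a ribosome biogenesis gene, at 9.32. For 5530601H04Rik, over the 9 libraries that list it, they were Pbdc1 at 5.83, Kdm5c at 6.52 and Las1l at 7.74. This likeness is one of level, since few genes had shares near 40%. It was taken over all listed sites, which include 5 almost wholly reference sites in Eif2s3x, 1 in Ddx3x and 0 in Pbdc1. The order among the members therefore depends in part on which sites are listed. At the sites listed in all 12 libraries Eif2s3x averaged 43.0% in reprogrammed libraries and 44.2% in MEF. There Pbdc1 averaged 39.1% and 43.0%, and Ddx3x 48.1% and 37.1%.

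Other escape genes did not share a single pattern. The list held 13 genes, chosen with results of these data known, of which 10 had a site and 7 to 9 were measured per library. In the 3 MidK1 libraries their median share was 49.4%, 43.0% and 49.1%, in LowK 19.7%, 30.0% and 29.0%, and in MidK2 44.7% to 56.2%, against 4.44% in MEF1 and 13.1% in MEF2. These medians rest on different genes: Kdm6a and Car5b had no listed site in either MEF library, and Mid1 had sites only there. They also include Xist, at 0% in MEF1, 80.7% in MEF2 and 65.3% to 93.9% in the reprogrammed libraries that list it. Kdm5c behaved like Pbdc1, with 28.1% to 44.3% in reprogrammed libraries, against 37.7% in MEF1 and 50.4% in MEF2. Utp14a had 14.5% to 49.4%, against 31.3% in MEF1 and 34.0% in MEF2. Bgn, a proteoglycan gene of the fibroblast matrix, had 55.7% to 90.9% in the reprogrammed libraries that list it, against 3.72% in MEF1 and 1.14% in MEF2. Its site coverage was far lower in reprogrammed libraries, at 0 to 1327 per 100000 (median 379), against 21570 in MEF1 and 19580 in MEF2. By the 20-point rule 1 to 3 of the 4 to 7 list genes tested were called higher in each reprogrammed library, and they were Bgn, 1810030O07Rik and Usp9x. The 4 members, already read from both alleles in fibroblasts, had medians of 38.2% to 56.3% in reprogrammed libraries against 43.3% in MEF1 and 48.5% in MEF2.

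The list of 15 genes known to be silenced on the inactive X stayed low by comparison. Its median was 2.99%, 4.60% and 7.26% in MidK1, 1.6%, 2.54% and 5.41% in LowK and 2.81% to 14.5% in MidK2, against 3.85% in MEF1 and 9.28% in MEF2. These medians rest on the sites each library lists: at shared sites the silenced genes of MEF2 differed from MEF1 by a median of -2.08 points. By the 20-point rule 0 of the 12 or 13 genes tested were called in any reprogrammed library. At an adjusted p under 0.05 by Fisher's exact test, 11 of 13 were higher in MidK2 at day 22 and 0 of 12 in LowK at days 35 and 52. The median over all genes was 2.16% to 19.0% in reprogrammed libraries. In LowK at day 52 the Ddx3x share was above that of MEF1 while 5 of the 12 silenced genes were lower and 0 higher, so they did not move together there. At day 36 of MidK2, 10 of 14 silenced genes were lower than at day 29 by that test and 0 were higher. The fall was not particular to them: of all 291 genes tested 118 passed, 13 of these higher, with a median of -2.38 points. The summed Ddx3x share differed by 0.0264 points between these days and its median site was higher.

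**Figure D5:**
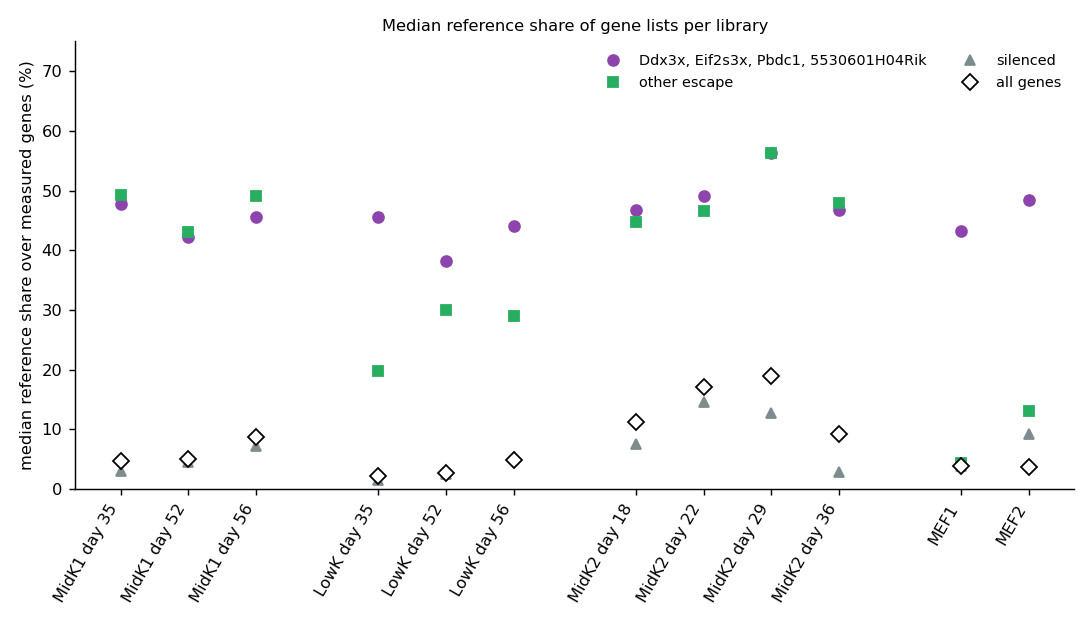
Median reference share (%) per library over the measured genes among Ddx3x, Eif2s3x, Pbdc1 and 5530601H04Rik, 13 other escape genes, 15 silenced genes and all genes. The first group stays at 38.2% to 56.3% in all libraries, the silenced genes stay at or under 14.5%, and the other escape genes lie between or beside them.

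The tables list 3245 to 7991 variants per library, with 132839 to 263256 reads of coverage over sites of at least 20 reads that have a gene name, and a median of 35 to 40 reads per site. As a check of the labels, Rhox5, an X-linked gene of pluripotent and germ cells, had site coverage of a median of 199 per 100000 in reprogrammed libraries and no listed site in either MEF library. The fibroblast genes Bgn, Flna, Msn, Timp1 and Tmsb4x had more site coverage in both MEF libraries than in any reprogrammed library. Of the other pluripotency genes reported, Zfx also had no listed site in MEF, Tfe3 had 894 to 1790 per 100000 against 413 in MEF1 and 535 in MEF2, and Nr0b1 and Fthl17a had none in any library. The part of these cell markers in the Ddx3x difference was not tested.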

How the data were processed

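Poly(A) RNA of 12 libraries (500 ng of total RNA each) was sequenced as paired reads of 76 bases, per the labels' protocols. Variants were called with the CLC Genomics Workbench Basic Variant Call, per the series' design text, and the submitters' processing notes name build mm10. No source used here gives the aligner settings. The deposited tables give, per variant, a count of variant reads, the coverage, and a percent that the authors computed as their ratio. The lowest coverage is 10 reads in every table. The lowest variant count is 5 reads in the tables of MEF1, LowK and MidK1 and 2 reads in those of MEF2 and MidK2, and a position below these limits is not listed.

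Reference share was 100 times coverage minus count, over coverage, at single-base variants with at least 20 reads, summed per gene, with 95% Wilson intervals. Each reprogrammed library was compared with the MEF library of the same limits. Library pairs were tested with Fisher's exact test at shared sites (scipy 1.17.1), with Benjamini-Hochberg adjustment over all genes of the pair, and called at an adjusted p under 0.05 and 20 points. Groups of libraries were compared with exact two-sided permutation tests. On data simulated for MidK1 day 35 against MEF1, 28 of 30 genes changed by 30 points were called and 0 unchanged ones, among 153 genes. The simulated counts held counting error only, with no spread between libraries, and smaller changes such as those of Ddx3x were not simulated. Alternatives changed the coverage minimum, the sites, the share and the libraries. Genes named beside the members are the 2 nearest on each side with sites in all libraries, the 3 closest in share, and the listed genes. Some genes that this rule or the marker lists name are not reported here. The members and lists were chosen with earlier results of these data known.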

Additional observations from a re-analysis of the deposited data

Results flagged for a closer look

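The 3 insertions and the 2-base change of Ddx3x lie outside the single-base measurement, and their summed share stood above the fibroblast level, although 1 insertion alone did so in 4 of 10 libraries. The summed share of reads without the variant was 64.6%, 68.1% and 63.2% in MidK1 at days 35, 52 and 56, and 52.5%, 59.0% and 55.7% in LowK at the same days. In MidK2 it was 56.1%, 56.1%, 57.5% and 59.4% at days 18, 22, 29 and 36, against 51.7% in MEF1 and 50.3% in MEF2. The 5-base deletion of Eif2s3x, also outside that measurement, differed by -14.0 points between the reprogrammed libraries and MEF, with only 41 reads over it in MEF1 and 36 in MEF2. The Eif2s3x insertion listed in all 12 libraries differed by -6.18 points, with 32 reads over it in MEF1 and 27 in MEF2.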

How the results depend on the processing

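The Ddx3x difference between reprogrammed libraries and MEF kept its direction under all 26 alternatives and its exact permutation p stayed under 0.05 in 21. It missed that threshold with the less read allele (4.95 points), and in the tables with the limits of MEF1 alone (9.10 points) or of MEF2 alone (10.5 points), where no smaller p is possible. Leaving out a library gave 8.65 to 10.4 points, and without either MEF library the smallest possible p is above 0.05. Among the 21, some settings changed no Ddx3x site and so could not alter its difference of 9.50 points. These were leaving out positions naming several genes, keeping every position naming the gene, and leaving out sites almost all variant. The Eif2s3x difference (-2.60 points) turned positive with at least 50 reads (0.331), with the median site (0.939) and with the less read allele (1.20). It did so too without almost wholly reference sites (0.480), in the tables with the limits of MEF1 (0.805) and without MEF2. Leave-one-out values were -10.2 to 4.98. The difference passed with sites at least 200 bases apart (-7.42), a set that keeps an almost wholly reference site which only MEF2 lists. The Pbdc1 difference (-4.22) became 1.96 with at least 50 reads, and leaving out a library gave -4.92 to -3.07. The 5530601H04Rik difference (-5.90) became 0.806 with at least 10 reads and 1.40 at its single best covered site, and leaving out a library gave -12.1 to 0.287. The MidK1 minus LowK difference of Eif2s3x (-0.743) became 0.740 with the less read allele, and leaving out a day gave -1.49 to 0.507. For Ddx3x it was 2.57 to 5.91 and for Pbdc1 5.02 to 10.1 when a day was left out. The count of member comparisons called against MEF was 0 of 36, and 11 by adjusted p alone. By adjusted p alone 18.4% to 67.9% of all genes passed per reprogrammed library, so 11 does not set the members apart. With a size of 10 points the count was 8, and no share over all genes is given at that size. The cause was not tested for these. Leaving out almost wholly reference sites and sites in runs of equal bases was chosen after seeing the data. Sign flips of MidK1 minus LowK, paired by matched day, gave an exact p of 0.5 for Ddx3x over all listed sites and 0.25 over the sites listed in all libraries, the smallest that 3 days allow. Coverage limits 5530601H04Rik most.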
